A study of Mus musculus with 8 samples.

Results

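Nucleotide synthesis and one-carbon metabolism were followed through 34 genes in primary spheres of TH-MYCN mouse ganglion cells grown with or without retinoic acid (RA). The genes were taken by name from the pathways of purine and pyrimidine synthesis, nucleotide salvage, serine synthesis, the folate cycle and the methionine cycle. They are 34 of 13539 genes tested and were covered by 50 probes, of which the probe with the highest mean signal stood for its gene. All 34 were well above background on all 8 arrays, so none of them entered through the signal of 1 medium.

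RNA of spheres from RA-free medium was on 4 arrays, and 4 held RNA of spheres from RA-containing medium. Every sphere culture came from the superior mesenteric ganglion of a 3-week-old mouse of the 129+Ter/SvJcl background, hemizygous for TH-MYCN, and was collected on day 8. TH-MYCN is a transgene in which a tyrosine hydroxylase promoter drives human MYCN in sympathetic cells, and its carriers can develop neuroblastoma. Both media were therefore tested on transgenic cells, and no culture of wild-type cells enters the comparison. The series' description states that the cells of a ganglion were divided between the media, so arrays with the same number were treated as a pair from 1 animal.

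The purine ring is built stepwise on a ribose phosphate until inosine monophosphate is reached, from which adenine and guanine nucleotides branch. The pyrimidine ring is closed first and joined to ribose phosphate afterwards. Serine passes a carbon unit to tetrahydrofolate, and the resulting folates supply carbons to the purine ring, to thymidylate and to the remethylation of homocysteine. Proteins of the MYC family bind the DNA motif CACGTG, called the E-box, and are known to activate a number of these genes, and dividing cells depend on the pathways for DNA and RNA synthesis.

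Promoter windows from RefSeq (build GRCm38.p6, 250 bases before to 50 after a transcript start) were at hand for 32 of the 34 genes. The motif CACGTG, which reads the same on both strands, was present in a window of 4 of these 32 genes (12.5%), against 8.09% of all 27025 genes with a window. The holders were Paics, Atic, Impdh2 and Nme1, and their windows are shown because the motif is the known site of the transgene's family, with the motif in capitals and the strand of the gene written 5′ to 3′. Nme1 has a window for each of 2 starts, both with the motif. The windows of Impdh1, Shmt1 and Shmt2, in which the motif was not found, are given beside them. These genes belong to the pairs of paralogs with the largest differences in the comparison below. The motif was also absent from the windows of Nme2, the paralog of Nme1, which are not given. Of the 2 windows of Impdh1, neither of which holds the motif, 1 is given. Umps, Ppat and Dut, whose changes below are among the largest, also lacked the motif in their windows. The share of 12.5% rests on 4 genes, and CACGTG outside the windows was not searched. A match describes the letters in the window and does not show binding.
Paics (chr5:76951052-76951351, plus strand): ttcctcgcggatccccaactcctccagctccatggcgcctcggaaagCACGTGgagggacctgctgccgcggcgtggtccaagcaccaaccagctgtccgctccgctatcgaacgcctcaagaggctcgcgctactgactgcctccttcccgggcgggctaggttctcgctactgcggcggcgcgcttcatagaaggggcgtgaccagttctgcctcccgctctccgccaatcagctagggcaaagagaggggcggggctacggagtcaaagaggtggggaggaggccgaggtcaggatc
Atic (chr1:71556906-71557205, plus strand): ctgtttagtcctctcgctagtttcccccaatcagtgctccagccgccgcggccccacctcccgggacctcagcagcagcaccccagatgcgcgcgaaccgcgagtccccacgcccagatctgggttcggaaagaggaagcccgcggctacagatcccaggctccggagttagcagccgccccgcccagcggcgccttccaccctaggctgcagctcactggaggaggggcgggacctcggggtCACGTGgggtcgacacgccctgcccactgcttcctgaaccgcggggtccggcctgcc
Impdh2 (chr9:108560186-108560485, plus strand): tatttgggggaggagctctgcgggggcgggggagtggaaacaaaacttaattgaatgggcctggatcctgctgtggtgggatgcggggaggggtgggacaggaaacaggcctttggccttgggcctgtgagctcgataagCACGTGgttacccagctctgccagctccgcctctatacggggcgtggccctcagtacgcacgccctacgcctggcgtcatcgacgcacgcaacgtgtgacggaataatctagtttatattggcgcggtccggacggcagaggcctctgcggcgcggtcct
Nme1 (chr11:93968223-93968522, minus strand): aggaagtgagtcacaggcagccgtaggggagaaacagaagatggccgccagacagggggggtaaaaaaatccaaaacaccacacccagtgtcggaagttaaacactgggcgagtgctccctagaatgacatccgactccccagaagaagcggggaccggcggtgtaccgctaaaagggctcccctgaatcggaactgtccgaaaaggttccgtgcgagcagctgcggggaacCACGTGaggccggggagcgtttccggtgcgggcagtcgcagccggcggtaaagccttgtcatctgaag
Nme1, other start (chr11:93967976-93968275, minus strand): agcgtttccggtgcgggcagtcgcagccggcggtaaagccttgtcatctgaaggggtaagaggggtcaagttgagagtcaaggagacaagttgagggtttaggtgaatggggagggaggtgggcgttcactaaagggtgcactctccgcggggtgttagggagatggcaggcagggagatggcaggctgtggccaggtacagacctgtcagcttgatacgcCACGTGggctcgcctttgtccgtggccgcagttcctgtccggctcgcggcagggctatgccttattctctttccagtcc
Impdh1 (chr6:29216315-29216614, minus strand): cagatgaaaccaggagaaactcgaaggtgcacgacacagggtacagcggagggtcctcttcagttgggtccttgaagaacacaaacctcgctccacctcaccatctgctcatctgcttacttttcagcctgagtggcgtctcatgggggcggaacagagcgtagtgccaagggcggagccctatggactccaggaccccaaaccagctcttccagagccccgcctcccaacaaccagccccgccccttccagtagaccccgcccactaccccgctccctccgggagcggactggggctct
Shmt1 (chr11:60811216-60811515, minus strand): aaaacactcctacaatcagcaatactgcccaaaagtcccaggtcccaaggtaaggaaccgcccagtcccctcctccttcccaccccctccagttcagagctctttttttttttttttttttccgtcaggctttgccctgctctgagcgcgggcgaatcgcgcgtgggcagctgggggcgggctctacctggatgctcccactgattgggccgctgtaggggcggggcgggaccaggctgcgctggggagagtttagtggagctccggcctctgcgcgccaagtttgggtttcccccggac
Shmt2 (chr10:127522395-127522694, minus strand): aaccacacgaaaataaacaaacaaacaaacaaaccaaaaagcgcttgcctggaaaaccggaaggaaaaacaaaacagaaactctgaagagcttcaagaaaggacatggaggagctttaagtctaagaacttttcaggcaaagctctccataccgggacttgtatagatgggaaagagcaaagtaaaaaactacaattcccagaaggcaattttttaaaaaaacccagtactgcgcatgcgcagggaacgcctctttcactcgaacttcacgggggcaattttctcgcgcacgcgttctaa
A pair of further motifs was searched on both strands. TGATGNAA, the core of the amino acid response element, was found in a window of Prps1 alone among the 32 genes (3.12%, against 4.51% of all genes). TTTGGCGC, 1 form of the E2F site, was found in none of them (against 0.585% of all genes). With a form so rare, its absence from 32 genes says little. Other forms of the E2F site were not searched, so the windows may hold them.

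On the arrays as a whole, 48.5% to 55% of non-control spots were well above background with RA left out and 52.7% to 55.3% with RA present. Levels are log2 intensities relative to the 75th percentile of their array, and a change is the RA-free minus the RA-containing level in the paired fit with limma. A gene is called where its p, adjusted over all 13539 genes, is under 0.05. The cells' identity was checked on 11 sympathoadrenal markers, all of which were well above background on all 8 arrays; 4 were called higher, 3 lower and 4 did not pass. Th, which opens the synthesis of catecholamines, averaged 7.83 ± 0.10 in RA-free and 4.25 ± 0.31 in RA-containing medium (SD, n = 4 each). Isl1, Slc18a2 and Ddc were also higher (log2 changes 2.00, 0.75 and 0.47, adjusted p = 0.000113, 0.00106 and 0.0120). Dbh, which makes noradrenaline, went the other way (log2 change −1.54, SE 0.13, adjusted p = 0.000267), as did the granule protein gene Chga (2.00-fold lower, adjusted p = 0.000845) and the transcription factor gene Hand2 (log2 change −0.39, SE 0.076, adjusted p = 0.00602). The mouse Mycn probe, which need not detect the human transgene, stood at 3.12 ± 0.17 in RA-free and 3.30 ± 0.16 in RA-containing medium (log2 change −0.18, SE 0.11, adjusted p = 0.199). The level of the transgene itself was not measured here. Of the RA-free arrays, array 1 lay nearest to the RA-containing arrays on the first principal component (42.3, against 59.5 to 66.2 for the other RA-free arrays and −61.2 to −52.3 for the RA-containing arrays).

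Most genes of the module were higher without RA. Of the 34, 29 were called higher and 1, Impdh1, was called lower, while Adss, Dhodh, Aprt and Shmt2 did not pass the test. Among all tested genes 35.9% were called higher and 28.4% lower, 64.3% in all. The median change of the 34 was 0.76, equal to 1.70-fold, against 0.07 for all tested genes. A call with a log2 change of 1 or above was reached by 9 of the 34 and by 7.5% of all genes. The RA-free and RA-containing arrays did not overlap for 26 of the 34, against 53.1% of all genes, and 31 of the 34 were higher in every animal, against 40.5% of all genes. The median over the 34 genes was 0.68, 0.74, 0.89 and 0.67 in animals 1 to 4, so it was similar in all animals, whereas the median over all genes lay between 0.06 and 0.08. In bulk RNA of this kind, more cells of a type and more RNA per cell cannot be told apart.

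**Figure D1:**
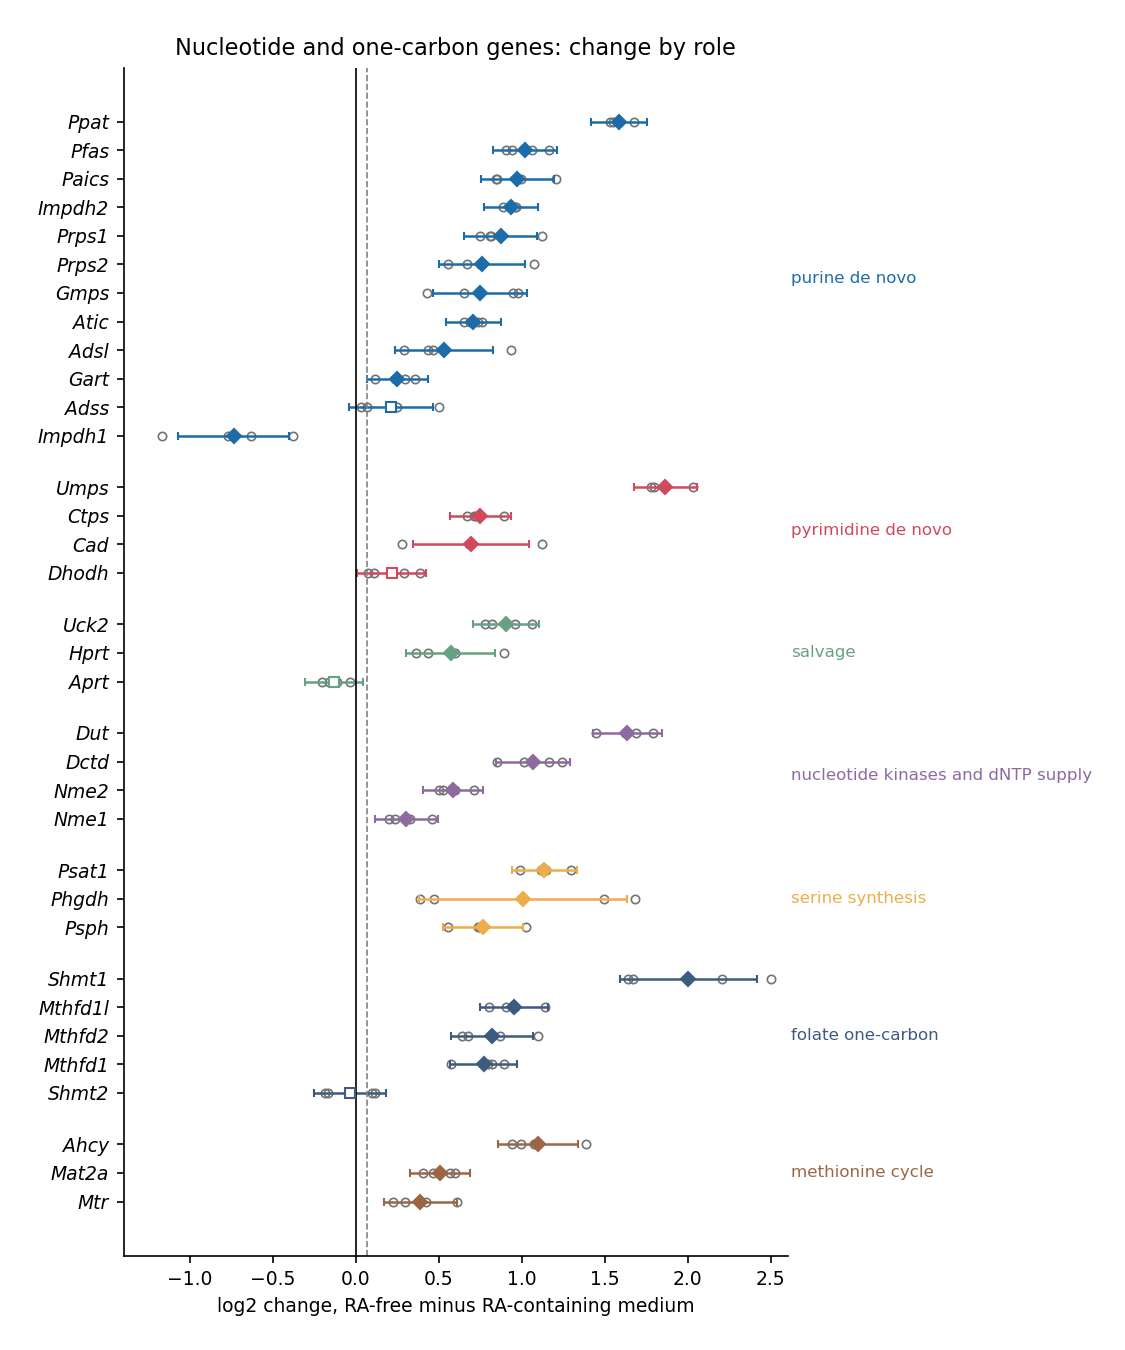
Log2 change (x axis, RA-free minus RA-containing medium) of the 34 genes, ordered by size within each role. Filled diamonds are called genes and open squares are genes that did not pass, with 95% confidence intervals; circles are the 4 animals, and the dashed line is the median of all tested genes (0.07). Impdh1 is the 1 called gene left of 0.

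**Figure D2:**
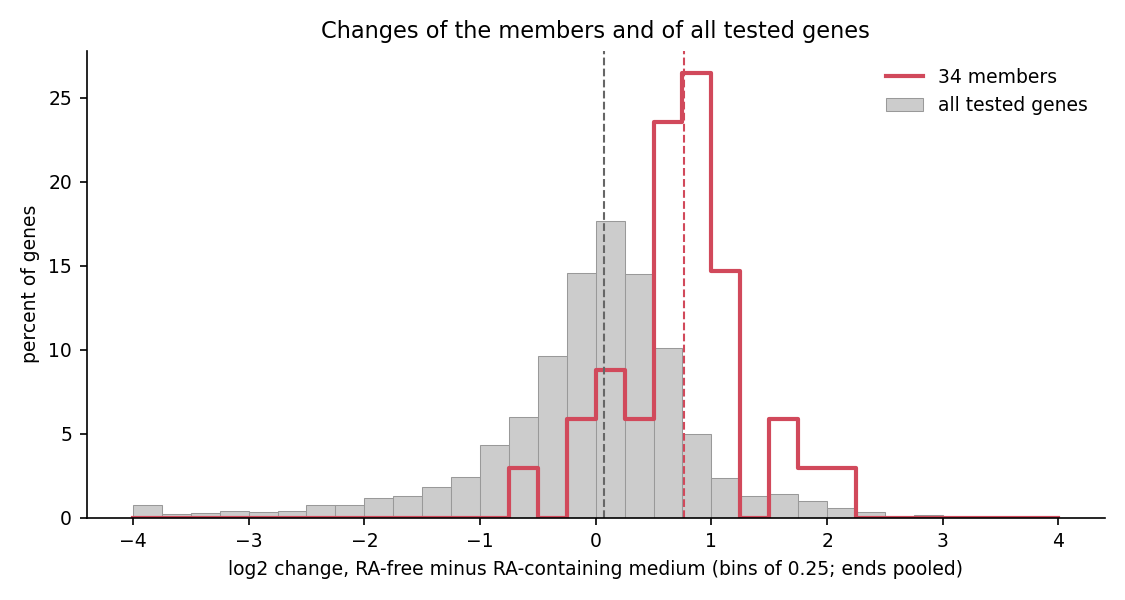
Percent of genes (y axis) in bins of 0.25 of the log2 change (x axis) for all 13539 tested genes (grey) and for the 34 genes of the module (red line); dashed lines mark the medians, 0.07 and 0.76. The red line lies mostly to the right of the grey peak, with 9 of the 34 genes called at a change of 1 or more.

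Markers of proliferation moved with the module. All 10 of 10 listed proliferation genes were called higher (against 35.9% of all genes), with a median change of 2.00. The mean level of the list was 4.68 to 5.24 on the RA-free arrays and 2.78 to 3.35 on the RA-containing arrays. Mki67, a nuclear protein of cycling cells, had a change of 1.84 (SE 0.10, adjusted p = 9.83e-05). The part of proliferation in the changes of nucleotide genes was not tested. Of the markers of other cells that a ganglion can hold, 1 of 5 tested glial genes was lower, and 1 of 4 fibroblast genes was higher and 2 were lower. Of all genes, 35.9% were called higher and 28.4% lower. Dcn, 1 of the 2 lower fibroblast genes, was well above background on every RA-containing but on no RA-free array. It entered the test through the RA-containing arrays, and its arrays overlapped between the media. Of 3 immune genes the macrophage markers Aif1 and Adgre1 were lower. No RA-free array had either of them clearly over background, so both entered the test through the RA-containing arrays. The remaining immune gene, Csf1r, was well above background on every array of both media and did not pass (log2 change 0.021, adjusted p = 0.902). Of 2 endothelial genes 1 was lower. Of 5 listed adrenocortical genes 2 could be tested, and 1, Star, was higher. Star was near background, well above it on 2 of the 4 arrays of each medium. The list means that follow include RA-free readings of Aif1, Adgre1 and Dcn that were not clearly over background. The gap of the immune mean comes from Aif1 and Adgre1, so its size is uncertain. The mean level of the immune list was −4.07 to −3.55 on the RA-free arrays and −2.63 to −1.71 on the RA-containing arrays, and its markers Ptprc and Cd14 were too near background to be tested. The same means were −1.72 to −1.05 and −1.17 to −0.90 for glia, −2.72 to −1.76 and −2.46 to −1.47 for fibroblasts, −0.24 to −0.084 and 0.0052 to 0.078 for endothelium, and −2.67 to −2.35 and −3.18 to −2.70 for the adrenal cortex, on the RA-free and the RA-containing arrays. Their part in the result was not tested.

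The purine pathway had 10 of its 12 genes called higher (83.3%, against 35.9% of all genes). Its first committed enzyme showed the largest change of the pathway: Ppat, which transfers an amino group to phosphoribosyl pyrophosphate, stood at 1.84, 1.95, 1.94 and 1.86 on RA-free arrays 1 to 4, against 0.16, 0.37, 0.39 and 0.32 on RA-containing arrays 1 to 4. The media were far apart and the arrays within a medium close together, giving a 3.00-fold higher level in RA-free medium (NM_172146; log2 change 1.58, SE 0.069, adjusted p = 6.26e-05). A dimmer probe of Ppat gave a smaller rise of 0.83, with which Ppat would not lead the pathway. Its neighbour Paics, which lies head to head with it in the genome and carries out a pair of later steps, stood at 4.25, 4.57, 4.67 and 4.51 without RA and at 3.40, 3.58, 3.47 and 3.66 with RA. No arrays of the media overlapped, and Paics was 1.96-fold higher (log2 change 0.97, SE 0.089, adjusted p = 0.000380).

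Enzymes before and after them rose as well, by differing amounts. Prps1 and Prps2, which make phosphoribosyl pyrophosphate, had changes of 0.87 and 0.76 (adjusted p = 0.000548 and 0.00155), with 0.47 for Prps2 under normexp background correction. Pfas, an amidotransferase of the middle of the pathway, rose by 1.02 (SE 0.078, adjusted p = 0.000219), and Atic, which closes the ring, by 0.71 (SE 0.067, adjusted p = 0.000431). Adsl, which acts once in ring synthesis and again on the way to adenosine monophosphate, rose by 0.53 (SE 0.12, adjusted p = 0.0105), but the media overlapped, since RA-containing array 2 lay above RA-free array 1. Gart, a protein with 3 enzyme activities of the pathway, was at 1.47, 1.56, 1.28 and 1.40 in RA-free medium and at 1.18, 1.45, 0.92 and 1.16 in RA-containing medium. These ranges overlapped and the change was small (log2 change 0.25, SE 0.075, adjusted p = 0.0287); it passed in 7 of the 15 alternatives. Without animal 1, 3 or 4 its adjusted p was 0.0916, 0.0624 and 0.0932.

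At the branch of guanine and adenine nucleotides the genes went apart. Impdh2, which commits inosine monophosphate to guanine nucleotides, was 1.91-fold higher in RA-free medium, with 5.68, 5.77, 5.64 and 5.67 on the RA-free arrays, against 4.72, 4.85, 4.75 and 4.71 on the RA-containing arrays. The 4 animals differed by little, with changes of 0.89 to 0.96 (adjusted p = 0.000176), and quantile normalization gave 0.60. Its paralog Impdh1 ran the other way, with 2.81, 2.34, 2.06 and 2.39 on the RA-free and 3.20, 3.11, 3.23 and 3.02 on the RA-containing arrays. Every RA-free array was below every RA-containing array, and Impdh1 was 1.67-fold lower (log2 change −0.74, SE 0.14, adjusted p = 0.00476), a call that did not hold under spike-in scaling (−0.58, adjusted p = 0.0761). Gmps, the last enzyme to guanosine monophosphate, rose by 0.75 (SE 0.11, adjusted p = 0.00235), with 0.38 to 0.75 over its 3 probes. Adss, the first enzyme towards adenosine monophosphate, had a change of 0.21 that did not pass (95% interval −0.042 to 0.46, adjusted p = 0.119), although it was positive in all 4 animals.

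Of the 4 pyrimidine genes 3 were called higher (75%, against 35.9% of all genes). Umps, which attaches ribose phosphate and completes uridine monophosphate, stood at 4.32, 4.73, 4.79 and 4.61 on the RA-free arrays, against 2.53, 2.88, 2.75 and 2.83 on the RA-containing arrays. Each animal had a higher level without RA by 1.78 to 2.03, so Umps was 3.64-fold higher (NM_009471; log2 change 1.86, SE 0.078, adjusted p = 5.77e-05); its dimmer probe gave 1.27. Cad, the large protein that carries the opening steps, was at −1.35, −1.88, −1.78 and −1.77 on the RA-free arrays and at −2.47, −2.16, −2.47 and −2.45 on the RA-containing arrays, again without overlap. Its changes in single animals ran from 0.28 to 1.12 with a mean of 0.69 (SE 0.14, adjusted p = 0.00695), the lowest in animal 2, and normexp gave 0.30. Ctps, which aminates uridine to cytidine nucleotides, rose by 0.75 (SE 0.074, adjusted p = 0.000490), with 0.41 under quantile normalization. Dhodh, the mitochondrial enzyme between Cad and Umps, had a change of 0.21 (95% interval 0.0054 to 0.42) and did not pass (adjusted p = 0.0681).

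**Figure D3:**
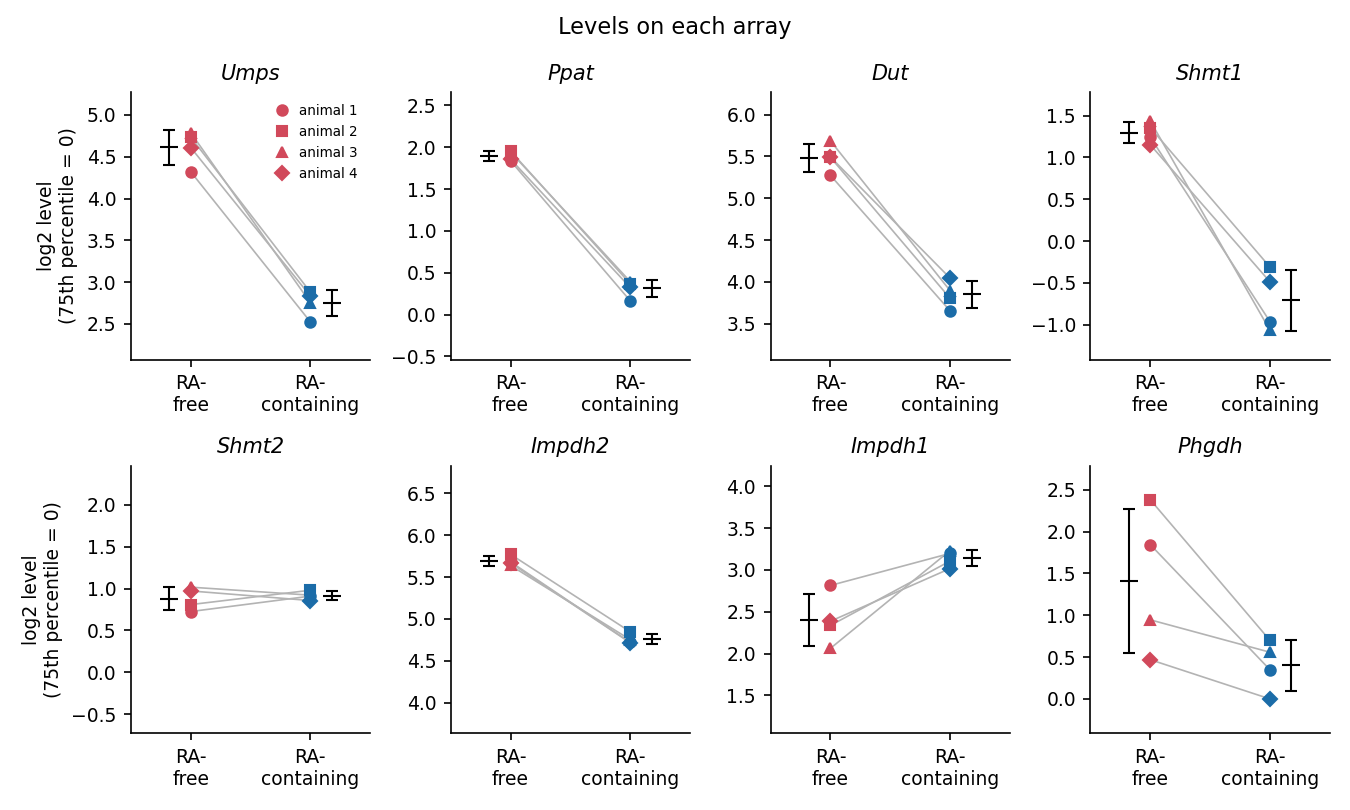
Log2 levels (y axis, 75th percentile of the array = 0; each panel spans 3.2 units) of 8 genes on the RA-free arrays (red) and the RA-containing arrays (blue), with symbols for the 4 animals, lines joining arrays of an animal, and bars for the mean and SD. Umps, Ppat, Dut, Shmt1 and Impdh2 lie higher without RA in all animals, Impdh1 lies lower, Shmt2 does not separate, and Phgdh spreads widely among the RA-free arrays.

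Salvage enzymes, which reuse bases and nucleosides, were divided. Uck2, a kinase of uridine and cytidine, rose by 0.90 (SE 0.080, adjusted p = 0.000341). Hprt, which recovers hypoxanthine and guanine, was at 4.77, 5.22, 5.54 and 5.37 in RA-free and 4.34, 4.87, 4.65 and 4.78 in RA-containing medium. Its arrays overlapped between the media, yet each animal was higher without RA (log2 change 0.57, SE 0.11, adjusted p = 0.00524), with 0.26 under quantile normalization. Aprt, which recovers adenine, was at 5.09, 5.31, 5.46 and 5.35 on the RA-free arrays and at 5.30, 5.47, 5.50 and 5.47 on the RA-containing arrays, a change of −0.13 with a 95% interval of −0.30 to 0.042 (adjusted p = 0.149). It was lower in all 4 animals and passed as lower under quantile normalization (−0.48, adjusted p = 0.00152). Over the 15 alternatives its adjusted p ran from 0.000157 to 0.942.

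The 4 genes that handle nucleoside diphosphates and deoxyuridine were all called higher, against 35.9% of all genes. Dut, which removes deoxyuridine triphosphate and yields the precursor of thymidylate, was at 5.27, 5.49, 5.69 and 5.49 on RA-free arrays, against 3.65, 3.80, 3.90 and 4.05 on RA-containing arrays. The groups were more than 1 unit apart and Dut was 3.11-fold higher (log2 change 1.64, SE 0.083, adjusted p = 8.5e-05). Dctd, which deaminates deoxycytidylate to deoxyuridylate, rose by 1.07 (SE 0.090, adjusted p = 0.000292), with 0.62 under normexp. The nucleoside diphosphate kinases Nme2 and Nme1 had changes of 0.58 (SE 0.073, adjusted p = 0.00111) and 0.30 (SE 0.077, adjusted p = 0.0161). Under quantile normalization these were 0.13 and −0.10, and under normexp with quantile normalization 0.14 and −0.057, none of which passed, so the direction of Nme1 depends on the scaling.

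The 3 enzymes that make serine from a glycolytic intermediate were all called higher, against 35.9% of all genes. Psat1, the aminotransferase of the middle step, was at 5.02, 5.42, 5.47 and 5.31 without RA and at 4.03, 4.28, 4.18 and 4.19 with RA, a clear separation of 2.20-fold (log2 change 1.14, SE 0.079, adjusted p = 0.000169). Psph, the phosphatase of the last step, rose by 0.76 (SE 0.10, adjusted p = 0.00112). Phgdh, the dehydrogenase of the first step, was at 1.84, 2.38, 0.95 and 0.47 in RA-free and 0.35, 0.70, 0.56 and 0.00032 in RA-containing medium. It was higher without RA in every animal (log2 change 1.01, SE 0.25, adjusted p = 0.0153), but the groups overlapped: the change was 1.50 and 1.68 in animals 1 and 2, and 0.39 and 0.47 in animals 3 and 4. A further probe of Phgdh gave 0.98.

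Among the folate genes the cytosolic and mitochondrial forms of serine hydroxymethyltransferase, which moves a carbon from serine to tetrahydrofolate, stood apart. Shmt1, the cytosolic form, was at 1.24, 1.36, 1.44 and 1.15 on the RA-free arrays, against −0.96, −0.31, −1.07 and −0.49 on the RA-containing arrays. This was the largest change of the module, 4.01-fold higher in RA-free medium (NM_009171; log2 change 2.00, SE 0.17, adjusted p = 0.000280), with 1.24 by its dimmer probe, and above 98.6% of the changes of all tested genes. At 1.24 Shmt1 would rank below Umps and Dut (log2 changes 1.86 and 1.64). Shmt2, the mitochondrial form, was at 0.73, 0.81, 1.02 and 0.97 on the RA-free arrays and at 0.91, 0.98, 0.92 and 0.86 on the RA-containing arrays. These values overlapped, with 2 animals higher and 2 lower, and the change of −0.036 had a 95% interval of −0.25 to 0.18 (NM_028230; adjusted p = 0.737).

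The enzymes that interconvert the folate-bound carbon were higher in both compartments. Mthfd1, the cytosolic enzyme with 3 activities, rose by 0.77 (SE 0.082, adjusted p = 0.000629). The mitochondrial enzymes Mthfd2 and Mthfd1l, which turn methylene-folate to formate, rose by 0.82 (SE 0.10, adjusted p = 0.00103) and 0.95 (SE 0.083, adjusted p = 0.000325). In the methionine cycle Ahcy, which removes S-adenosylhomocysteine, was at −0.55, −0.064, −0.27 and −0.48 in RA-free and −1.49, −1.06, −1.65 and −1.55 in RA-containing medium and was 2.14-fold higher (log2 change 1.10, SE 0.10, adjusted p = 0.000337). Mtr, which remethylates homocysteine with a folate carbon, rose by 0.39 (SE 0.089, adjusted p = 0.0112), and Mat2a, which makes S-adenosylmethionine, by 0.51 (SE 0.073, adjusted p = 0.00182). Under quantile normalization Mat2a had a change of 0.057 that did not pass (adjusted p = 0.513), and under spike-in scaling Mtr had 0.55 and did not pass (adjusted p = 0.0935).

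For 5 pairs of paralogs the change of the second gene was subtracted from that of the first in each animal. The differences were −2.04 ± 0.43 for Shmt2 minus Shmt1, 1.67 ± 0.30 for Impdh2 minus Impdh1, 0.28 ± 0.02 for Nme2 minus Nme1, 0.18 ± 0.13 for Mthfd1l minus Mthfd1 and −0.11 ± 0.12 for Prps2 minus Prps1 (SD, n = 4 animals). Each had the same sign in all 4 animals, where the exact two-sided sign-flip permutation test gives p = 0.13 (rounded) before and after adjustment over the 5 pairs, the smallest p that 4 animals allow. The Shmt, Impdh and Nme differences were several times their SD. That of the Prps genes was as small as its SD and turned to 0.13 under quantile normalization. The dimmer probe of Shmt1 gave a change of 1.24 in place of 2.00, so the size of the Shmt difference depends on the probe. Probes of close paralogs can share signal, which was not tested.

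**Figure D4:**
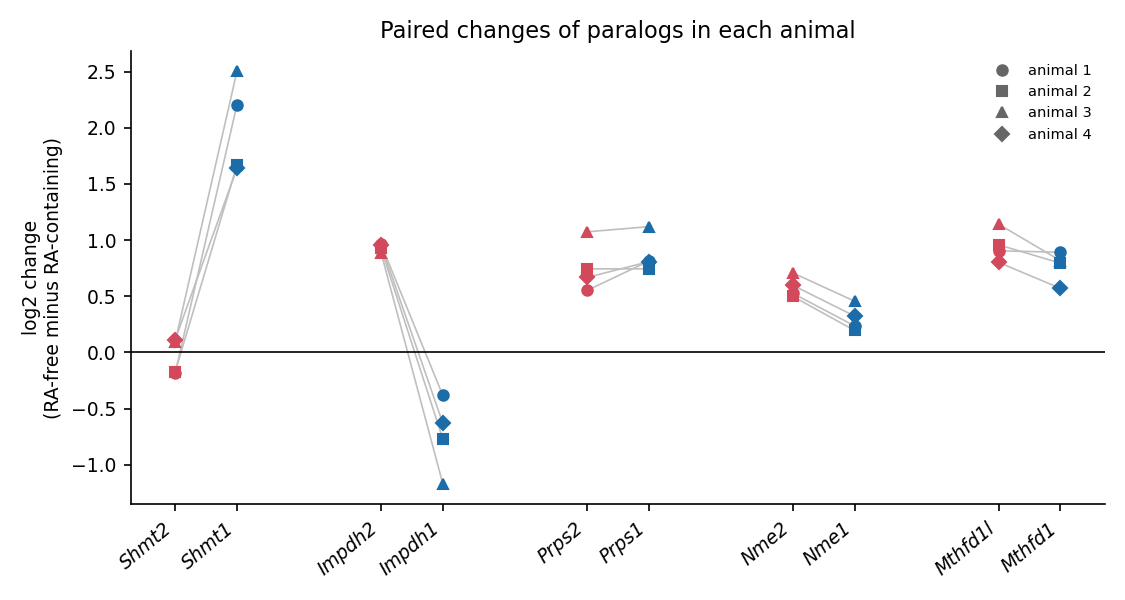
Log2 change (y axis, RA-free minus RA-containing medium) of 5 pairs of paralogs; each line joins the 2 genes of a pair in 1 animal, with symbols for the animals, the gene named first in red and the other in blue. Shmt1 lies far above Shmt2 and Impdh2 far above Impdh1 in every animal, while the other pairs lie close together.

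The other genes of these pathways moved in both directions. Of 105 further genes listed by role, 89 could be tested; 37 were called higher (41.6%, against 35.9% of all genes) and 15 lower (16.9%, against 28.4% of all genes), with a median change of 0.18. Of the 18 genes that supply deoxynucleotides 10 were called higher (55.6%) and 3 lower (16.7%), with a median of 0.55. Tk1, the cytosolic thymidine kinase of dividing cells, rose by 1.95 (SE 0.10, adjusted p = 9.34e-05), Tyms, which makes thymidylate from deoxyuridylate with a folate carbon, by 1.61 (SE 0.16, adjusted p = 0.000543), and Rrm1, the large subunit of ribonucleotide reductase, by 1.60 (SE 0.11, adjusted p = 0.000162). All 3 were more than 3-fold higher in RA-free medium on the processed signal, while normexp gave 1.01 for Tyms. Of 13 kinases of salvage and related genes 4 were higher (30.8%) and 3 lower (23.1%), against 35.9% and 28.4% of all genes. Ak6 had a change of 0.93, while Ak5, an adenylate kinase of the brain, had −1.86 (adjusted p = 0.000278 and 0.000170) and −0.83 under normexp.

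Genes of nucleotide breakdown and interconversion held the largest decreases. Of 21 tested, 8 were called higher (38.1%) and 4 lower (19%), against 35.9% and 28.4% of all genes. The same group held Upp1, a uridine phosphorylase named here after its values were seen. It was well above background on all RA-free but on no RA-containing array, so it entered the test through the RA-free arrays. Set against the lowest signal well above background on each RA-containing array, it was at least 2.77-fold higher on the processed signal. Gda, which deaminates guanine, was at 1.54, −0.40, −0.91 and −0.075 on the RA-free arrays and at 4.15, 3.43, 3.54 and 3.68 on the RA-containing arrays, without overlap, and was 12.7-fold lower (log2 change −3.66, SE 0.29, adjusted p = 0.000232). Cda, which deaminates cytidine, was 6.29-fold lower (log2 change −2.65, SE 0.10, adjusted p = 5.26e-05), with a smaller log2 change of −1.50 under normexp. Dpyd, which opens the breakdown of uracil and thymine, was well above background on all RA-containing but on no RA-free array and was at least 3.18-fold lower (measured means −4.80 ± 0.37 in RA-free and −2.61 ± 0.057 in RA-containing medium; adjusted p = 0.000213); the bound sets the RA-containing mean against the lowest signal well above background on each RA-free array. This bound holds on the processed signal alone, since normexp with its offset of 50 gave a log2 change of −0.50 for Dpyd. Of 4 nucleoside transporters Slc29a1, an equilibrative transporter of the cell surface, and Slc29a2 had changes of 0.88 and 0.35, while Slc29a3 had −1.02 and exceeded background clearly on 2 of the 4 RA-free arrays (adjusted p = 0.000510, 0.0219 and 0.000252). The call of Slc29a2 was lost in 5 of the 15 alternatives, among them those without animal 1 (adjusted p = 0.0709) or animal 2 (adjusted p = 0.0802), and that of Slc29a3 under normexp with the 75th percentile (−0.18, adjusted p = 0.0598).

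In the remaining folate genes, 2 of 13 were higher (15.4%), 2 lower (15.4%) and 9 did not pass, with a median of 0.05. Both shares lay below those of all genes, 35.9% higher and 28.4% lower. Aldh1l2, a mitochondrial enzyme that oxidises formyl-folate, had a change of −0.89 (SE 0.10, adjusted p = 0.000729), and Mthfd2l, a relative of Mthfd2, 0.51 (SE 0.083, adjusted p = 0.00311). Of 8 genes of glycine cleavage and serine transport 4 were higher (50%) and 1 lower (12.5%). Gldc, the decarboxylase of glycine, and Sfxn1, a mitochondrial serine transporter, rose by 1.31 and 0.73 (adjusted p = 0.000160 and 0.000540). Sfxn3 had a change of −2.26 (adjusted p = 0.000429). Normexp gave 0.63 for Gldc, and 0.39 for Sfxn1 with quantile normalization. Of 12 genes of the methionine cycle, methionine salvage and transsulfuration 7 were higher (58.3%) and 1 lower (8.33%). Mtap, which salvages adenine and methionine from methylthioadenosine, rose by 2.03 (SE 0.18, adjusted p = 0.000333). Cbs and Cth, the successive enzymes that turn homocysteine to cysteine, were 3.50-fold and 3.15-fold higher (log2 change 1.81, SE 0.19, adjusted p = 0.000608 and log2 change 1.66, SE 0.14, adjusted p = 0.000279). Under normexp the log2 changes of Mtap, Cbs and Cth were smaller, at 1.21, 1.00 and 0.81, and still passed.

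**Figure D5:**
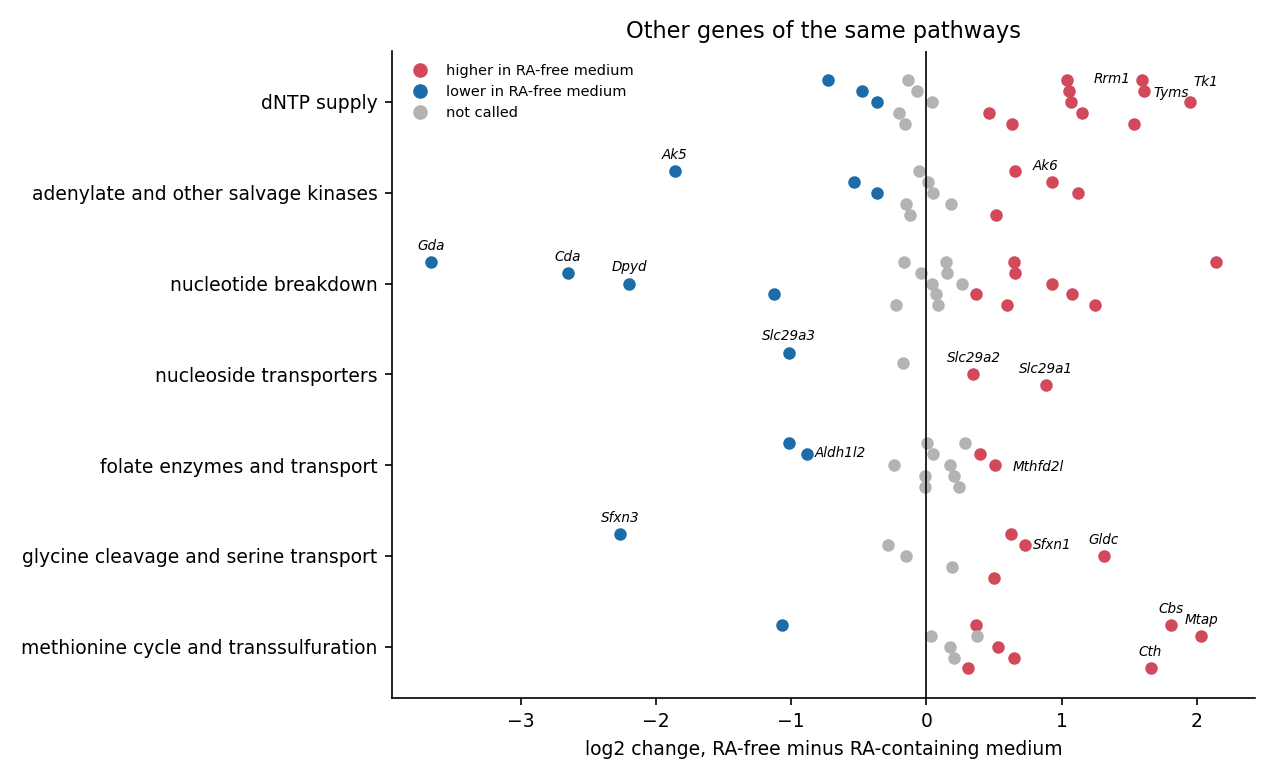
Log2 change (x axis, RA-free minus RA-containing medium) of the 89 tested further genes in rows by role; red points were called higher, blue points lower and grey points did not pass, and up to 3 called genes a row are named. The deoxynucleotide row has 10 red points, and Gda at −3.66 lies farthest left.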

How the data were processed

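Spheres of 4 animals in both media were measured on 1-colour Agilent arrays (Cy3). All 8 arrays share 1 slide and 1 scan per the file headers, so the model holds no term for slide or scan. Batches of culture or labelling were not tested. The authors extracted the intensities with Feature Extraction, which subtracts background and detrends each array to give the processed intensity. Per the labels, 40 or 200 ng of RNA were labelled. Which array received which amount is not stated, and the part of the amount in the changes was not tested. The authors also deposited log2 values, which matched the scanner values after centring each probe (lowest correlation 0.9999; column medians −0.07, 0.01, 0.17 and 0.20 for RA-free and −0.23, −0.22, 0.02 and −0.01 for RA-containing arrays 1 to 4). Their exact scaling is unknown and they served as an alternative.

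From 59305 non-control spots per array, outlier spots were left out, log2 processed intensities were set relative to the array's 75th percentile (228.1 to 302.3 intensity units) and spots of a probe were averaged. No non-control spot was saturated. Probes were named by accession through RefSeq (GRCm38.p6; 27206 probes with 1 symbol, 20641 symbols), and all 34 members matched. Genes were tested where a probe was well above background on at least 4 of 8 arrays, with the probe of highest mean, in limma 3.58.1 (R 4.3.3). The model held medium and animal, and two-sided p-values were adjusted by Benjamini-Hochberg. The pairing comes from the series' description; deviations from the medium's mean correlated at 0.52, 0.30, 0.19 and 0.33 in pairs 1 to 4. The number of arrays limits the precision. The fit was tested on simulated data in which few genes were changed. That setting differs from these data, where 64.3% of genes were called, and the scaling was not simulated.

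The members, lists and motifs were chosen with earlier results of these data known. Every member is named; of the further genes, up to 3 called ones per role with the largest change, of which some are not reported here. The 15 alternatives cover scaling, background, filter, probe choice, block, variance model, deposited values and leaving out each animal. The planned normexp on mean spot signals was run on median signals, as the files hold no mean spot signal.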

Additional observations from a re-analysis of the deposited data

Results flagged for a closer look

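In 68 sets of 4 arrays (34 genes in each medium), 3 had an array far from the other 3, where chance alone gives about 1 in 20. For Gmps, RA-free array 1 stood at 0.29, against 0.78 to 0.88 on the other RA-free arrays. For Cad, RA-containing array 2 stood at −2.16, against −2.47 to −2.45 on the other RA-containing arrays, and animal 2 had the smallest change of Cad (0.28). For Aprt, RA-containing array 1 stood at 5.30, against 5.47 to 5.50 on the other RA-containing arrays.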

How the results depend on the processing

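Over the 15 alternatives, between 25 and 30 members were called higher, and of the 29 called in the reported fit at least 25 kept the call under each. Lower calls among members numbered 2 under quantile normalization, under normexp with quantile normalization and when detected probes alone set the 75th percentile (Impdh1 with Aprt), and 0 under spike-in scaling. The median change of the members was 0.65 with the 75th percentile of detected probes, 0.60 under normexp with quantile normalization and 0.92 under spike-in scaling, where the median of all genes was −0.042, −0.014 and 0.23; without 1 animal it was 0.70 to 0.83. Among the further pathway genes 23 were lower under quantile normalization and 24 under normexp with quantile normalization, in place of 15; of all genes, 1913 were lower under spike-in scaling in place of 3841. Nme1 reversed to −0.10 and −0.057 under quantile normalization without and with normexp. Prps2 minus Prps1 turned to 0.13 under quantile normalization. Without the block for the animal pairing, 28 members were higher and 1 lower; the call of Gart was lost (adjusted p = 0.108) and no other member's call changed. Without 1 animal, 27 to 29 members were higher; Gart was lost without animal 1, 3 or 4, under quantile normalization (adjusted p = 0.0779), with the percentile of detected probes (0.153), under spike-in scaling (0.226) and without the filter on dim probes (0.0643). Nme1 was lost without animal 4 (adjusted p = 0.0668), with the percentile of detected probes (0.069) and under spike-in scaling (0.164), besides the reversals under quantile normalization. Slc29a2 was lost with the percentile of detected probes (adjusted p = 0.0836), under spike-in scaling (0.123) and without the filter (0.0513). Dhodh passed as higher in 2 alternatives. The cause of these shifts was not tested. Under normexp with the 75th percentile the changes of Cad, Dctd, Prps2 and Ahcy were 0.30, 0.62, 0.47 and 0.77, so their size depends on the background correction, while those of Umps and Dut were 1.85 and 1.63.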
